A study of Mus musculus with 8 samples.

Results

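The proteasome subunits are the genes whose symbol is Psma, Psmb, Psmc or Psmd followed by a number. The deposited table holds 39 of them among 54427 listed genes: 8 Psma genes, 11 Psmb genes, 6 Psmc genes and 14 Psmd genes. Of the 39, 37 reached the mean level of 1 CPM needed for testing, and Psma8 and Psmb11 did not. The members were taken by symbol alone, but the set was chosen with earlier results of these data known.

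The proteasome is the protease that cuts up proteins tagged with ubiquitin. Its barrel-shaped 20S core is built from outer rings of alpha subunits (Psma), which gate the entrance, and inner rings of beta subunits (Psmb), of which Psmb5, Psmb6 and Psmb7 carry the standard active sites. The 19S cap recognises, unfolds and feeds in the substrate: its Psmc subunits are ATPases, and most Psmd genes encode the rest of the base and the lid. In immune cells and under interferon the standard catalytic subunits are exchanged for Psmb8, Psmb9 and Psmb10, which gives the immunoproteasome. In pancreatic acinar cells, which make and fold digestive enzymes in bulk, the proteasome also degrades misfolded proteins sent out of the endoplasmic reticulum.

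RNA was sequenced from wild-type (WT) primary mouse pancreatic acinar cells, isolated with collagenase and injured for 6 h with 1 µM of the octapeptide of cholecystokinin (CCK), a hormone that drives enzyme secretion and harms acinar cells when given in excess. By title, 4 libraries are labelled AP, for the injured cells, and 4 are labelled AP_OCA, for injured cells with OCA, which commonly stands for obeticholic acid, a drug that activates FXR, the nuclear receptor for bile acids. The treatment text names OCA at 2.5 µM for all 8 libraries, AP included, so the absence of OCA in AP rests on the titles. The labels give no strain, age or sex, and do not say whether replicates came from separate animals or cell preparations, so p-values measure the spread between these samples. Both groups carried the CCK injury, and uninjured cells were not analysed here.

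The columns share their highest values and nearly their sum, as libraries do after quantile normalisation, so a CPM value below, scaled to 1000000 per library, is close to a rank position and not a share of a library's reads. Total read counts are unknown here. In bulk RNA, fewer cells of a type and less RNA per cell cannot be told apart. The 9 acinar markers summed to between 350100 and 360200 CPM in AP and between 336600 and 344600 in AP_OCA replicates 1, 3 and 4. In replicate 2 their sum was 330800 CPM. Normalisation of this kind nearly fixes a sum over top-ranked genes, so the sum does not show that each marker was abundant. In AP_OCA replicate 2, 3 of the 9 lay more than 2-fold below the other 7 libraries, and 0 more than 2-fold above, while the sum hardly moved. Bhlha15 was at 5.05 CPM there, against 63.1 to 120 CPM in the other 7. Ptf1a was at 1.12 against 17.4 to 34.5 CPM, and Amy2a5 at 353 against 1770 to 2954 CPM. AP_OCA replicate 2 stood apart in its values and in its markers. It held 21010 genes above 0, against 15394 to 16640 in the other 7. Its 3rd lowest step above 0 stood at 0.00045 CPM against 0.206 to 0.313, so the lower part of its distribution differed. Whether it was prepared or normalised differently was not tested, and its low CPM values may not be on the scale of the other 7. All 12 lymphocyte and antigen-presenting markers lay more than 2-fold above the other 7 libraries there, where 13.8% of all genes tested did. Their sum was 13870 CPM against 38.8 to 97.4, and Cd3e was at 0 in all of those 7. Of 9 macrophage markers, 8 lay more than 2-fold above, against the same 13.8%, with a sum of 926 CPM against 54.1 to 129. The sum of 5 islet markers was 8.82 CPM there against 483 to 2047, and that of 5 ductal markers 22.2 against 136 to 313. Between AP and AP_OCA replicates 1, 3 and 4 the sum of ductal markers was higher without overlap, at 263 to 313 CPM against 136 to 215, while stellate markers, at 99.1 to 153 against 160 to 222, and endothelial markers, at 17.6 to 32.4 against 34.0 to 50.2, were lower without overlap. Of each list 1 tested marker went against its sum. The log2 fold change over these 7 libraries was -0.49 for ductal Sox9, 0.46 for stellate Dcn and 0.59 for endothelial Emcn. The stellate gene Col1a1 (limma adjusted p = 0.0488) and the neutrophil gene Csf3r (limma adjusted p = 0.0241) fell (both named after their values were seen), and 0 other markers passed. The part of these cell types in the differences below was not tested. Each comparison is given over 7 libraries, with AP_OCA replicate 2 shown apart, and again over all 8.

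Promoter sequence was available from RefSeq for 32 of the 39 members, matched by symbol, as windows from 250 bases before to 50 bases after each gene's start in the GRCm38.p6 build. The members not matched were Psma8, Psmb1, Psmb2, Psmb7, Psmc3, Psmd3 and Psmd7. Windows were searched on both strands for 3 motifs. TGACNNNGC is the core of the antioxidant response element, which NRF1, the main activator of proteasome genes, binds. CCAAT is the box bound by NF-Y, and a pair of GAAA blocks spaced by NN is the core of the element bound by interferon regulatory factors. The 250 bases upstream of 4 members are shown because their transcripts carry the results below: Psma7, the member that passed the test, Psmb5 and Psmb6, standard catalytic subunits with a TGACNNNGC match, and Psmb9, the inducible subunit that takes the place of Psmb6. All are written 5′ to 3′ on the gene's own strand. Capitals mark the motif match, which is CCAAT in Psma7, TGACNNNGC in Psmb5 and Psmb6, and CCAAT read on the opposite strand in Psmb9. The windows lie at chr2:180042465-180042714 (minus strand) for Psma7, chr14:54617996-54618245 (minus strand) for Psmb5, chr11:70525107-70525356 (plus strand) for Psmb6 and chr17:34187331-34187580 (minus strand) for Psmb9. Upstream here means before the RefSeq start. The Psmb9 window lies inside the longer span that GENCODE gives the gene, chr17:34181987-34187764. That of Psmb5 reaches slightly into the GENCODE span, which ends at 54618022.
Psma7: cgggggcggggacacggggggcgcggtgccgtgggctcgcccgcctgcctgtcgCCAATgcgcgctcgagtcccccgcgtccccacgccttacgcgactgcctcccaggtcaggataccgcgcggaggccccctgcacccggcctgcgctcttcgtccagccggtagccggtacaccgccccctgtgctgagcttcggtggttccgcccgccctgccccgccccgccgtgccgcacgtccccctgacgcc
Psmb5: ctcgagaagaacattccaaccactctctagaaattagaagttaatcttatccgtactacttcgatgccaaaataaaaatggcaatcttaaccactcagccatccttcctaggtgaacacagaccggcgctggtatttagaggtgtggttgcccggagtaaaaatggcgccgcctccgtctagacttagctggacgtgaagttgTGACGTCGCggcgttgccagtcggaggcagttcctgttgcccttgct
Psmb6: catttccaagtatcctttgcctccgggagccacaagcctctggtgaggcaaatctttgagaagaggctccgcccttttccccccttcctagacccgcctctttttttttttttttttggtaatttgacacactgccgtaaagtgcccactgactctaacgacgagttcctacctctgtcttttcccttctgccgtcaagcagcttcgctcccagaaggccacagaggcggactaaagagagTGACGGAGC
Psmb9: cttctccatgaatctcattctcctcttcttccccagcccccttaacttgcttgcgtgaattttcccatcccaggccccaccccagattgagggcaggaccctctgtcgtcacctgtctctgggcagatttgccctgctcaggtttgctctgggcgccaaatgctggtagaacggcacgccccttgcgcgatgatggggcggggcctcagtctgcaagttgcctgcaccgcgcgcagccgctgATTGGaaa

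Motif matches were about as frequent before proteasome genes as elsewhere for the first pair of motifs. TGACNNNGC was found in 5 of 32 member windows, 15.6%, against 14.0% of the 27025 genes with a window; the 5 were Psmb5, Psmb6, Psmc6, Psmd9 and Psmd12. CCAAT was found in 13 of 32, 40.6%, against 41.1% of all windows. The spaced GAAA pair was found in 3 of 32, 9.38%, against 3.99%, and the 3 were Psmb3, Psmd4 and Psmd9. The inducible subunits Psmb8, Psmb9 and Psmb10 were not among those 3. Matches of different motifs did not overlap in the members' windows. A match describes the letters in these windows only.

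Proteasome subunit transcripts lay mostly higher in AP_OCA than in AP, but only 1 of them passed the test. Summed over the 39 members, the level was 913, 945, 938 and 900 CPM in AP replicates 1 to 4, and 1166, 1132 and 1456 CPM in AP_OCA replicates 1, 3 and 4. Every one of these AP_OCA libraries was above every AP library, and AP_OCA replicate 2 was highest at 2171 CPM. In the comparison over 7 libraries (limma on log2(CPM + 1), p-values adjusted by Benjamini-Hochberg over the 10894 genes tested), 1 of 37 members rose and 0 fell, where 2.44% of all genes tested passed in either direction, 0.854% as higher and 1.59% as lower. Of the 37, 33 had a log2 fold change above 0, against 50.0% of all genes, and the median log2 fold change was 0.43, against -0.0001 over all genes. The AP_OCA values lay wholly above the AP values for 16 of 37 members, 43.2%, where 11.1% of all genes did so, and wholly below for 1 member, Psmb9, where 12.1% of all genes did. At an unadjusted p under 0.05, 20 of 37 members were higher and 0 lower, where 11.8% of all genes were higher and 13.9% lower.

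**Figure D1:**
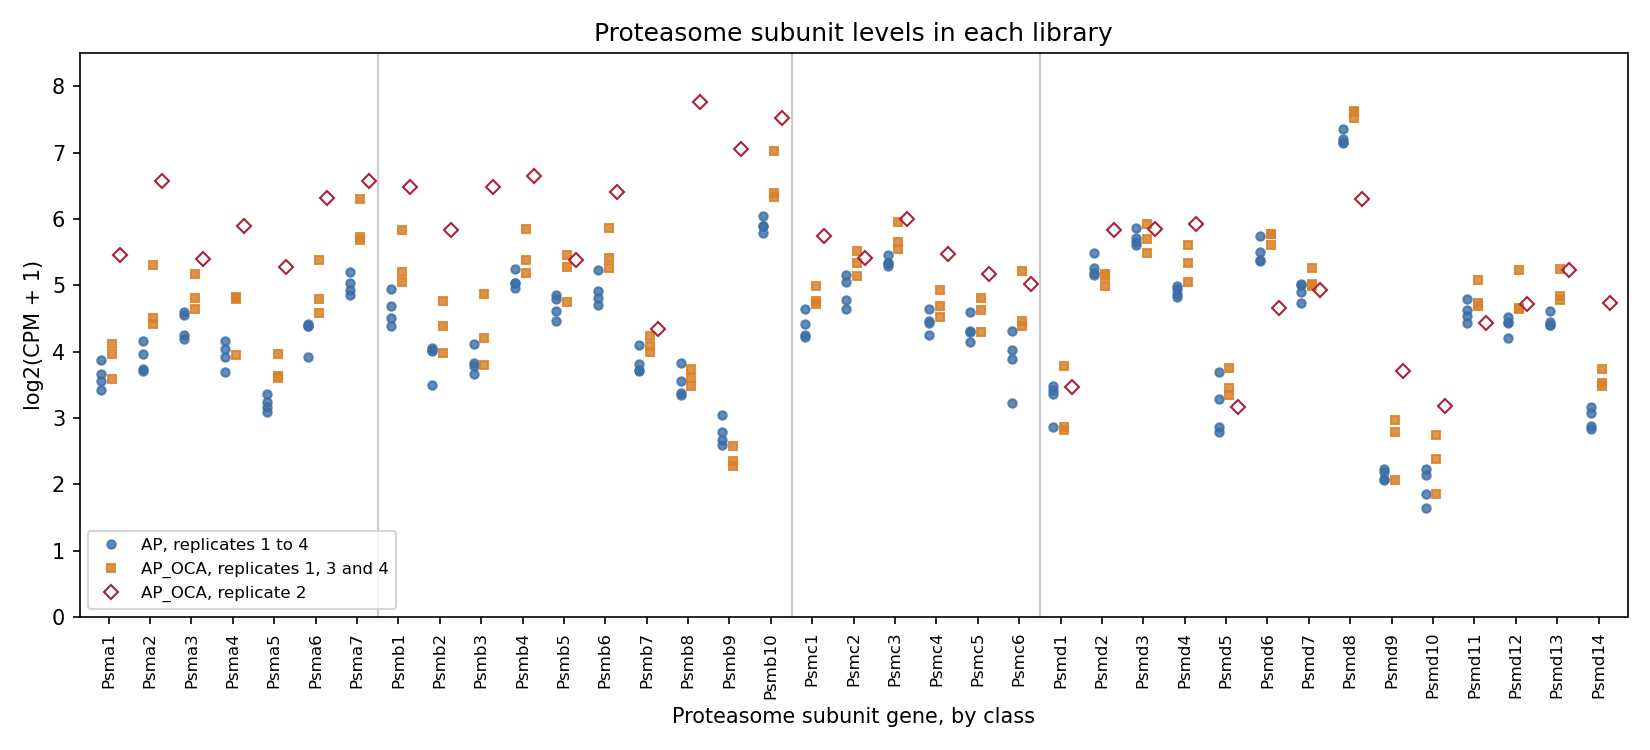
Level of each tested proteasome subunit gene (x axis, 37 genes by class) as log2(CPM + 1) (y axis) in each of 8 libraries: circles are AP replicates 1 to 4, squares AP_OCA replicates 1, 3 and 4, open diamonds AP_OCA replicate 2. The squares lie wholly above the circles for 16 genes, and the diamonds of Psmb8 and Psmb9 stand far above every other library.

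With AP_OCA replicate 2 included, 0 of 37 members passed, and 0.0% of the 11311 genes tested did. The smallest adjusted p among members was then 0.26 (limma), 15 of 37 members had an unadjusted p under 0.05, all of them higher in AP_OCA, where 7.31% of all genes were higher and 8.87% lower at that level, and the median log2 fold change was 0.61. The groups did not overlap, with AP_OCA higher, for 15 of 37 members, where 6.75% of all genes did so, and with AP_OCA lower for 0, where 8.57% did. Of 37 members, 35 had a log2 fold change above 0, against 49.1% of all genes. The median fold change was thus larger with that library.

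The difference was uneven over the AP_OCA libraries. The median difference of the 37 members from their AP mean, on log2(CPM + 1), lay between -0.06 and 0.04 in the 4 AP libraries. It was 0.35 in AP_OCA replicate 1, 0.27 in replicate 3, 0.74 in replicate 4 and 1.16 in replicate 2. Without AP_OCA replicate 4 the median log2 fold change was 0.29 in place of 0.43, and 0 members passed. The members' transcripts were short, with a median length of 1540 bases against 2930 over all genes tested, and after removal of the trend of fold change on transcript length and GC content the median was 0.19 and 0 members passed.

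**Figure D2:**
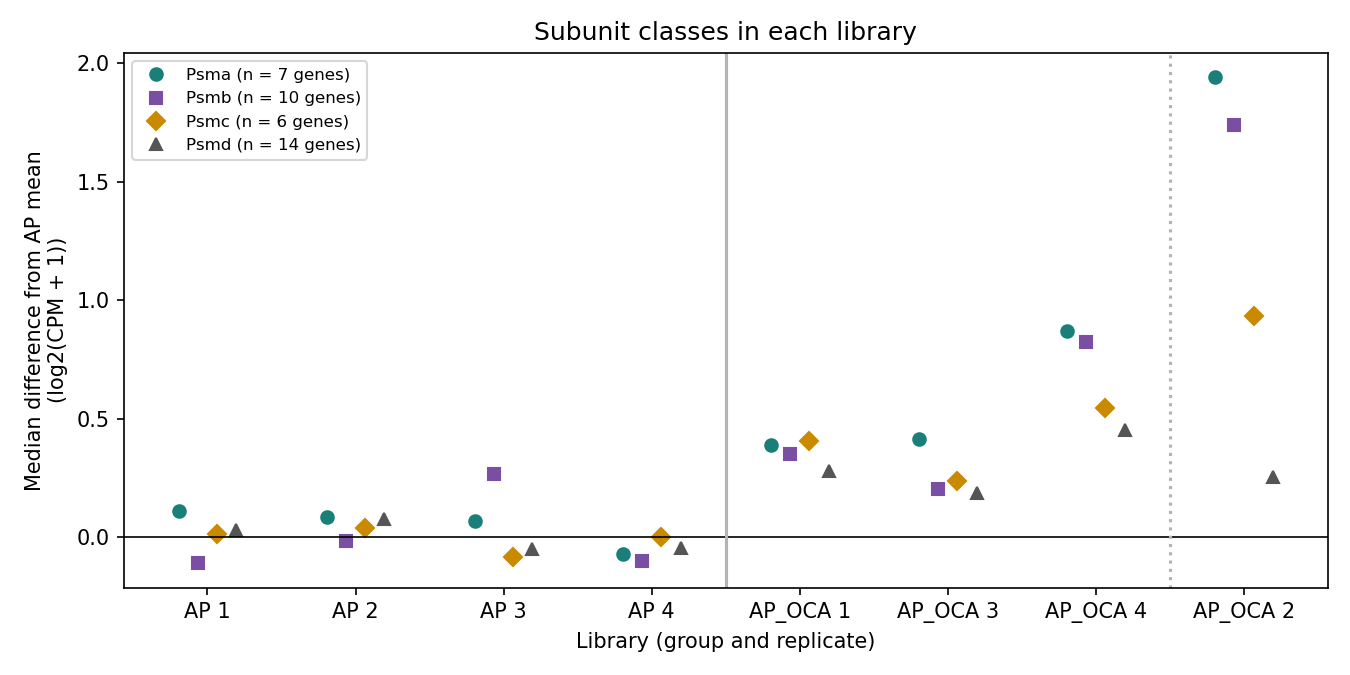
Median difference from the AP mean on log2(CPM + 1) (y axis) of the tested Psma, Psmb, Psmc and Psmd genes in each library (x axis), with AP_OCA replicate 2 at the far right. The classes lie between -0.11 and 0.27 in AP, while in AP_OCA replicate 2 they spread from 0.25 for Psmd to 1.94 for Psma.

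The alpha subunits had the highest median difference of the 4 classes over all 7 libraries, though not in every setting. Their 8 genes summed to between 107 and 127 CPM in AP and between 164 and 250 CPM in AP_OCA replicates 1, 3 and 4, with no overlap, and to 447 CPM in AP_OCA replicate 2. All 7 tested Psma genes had a log2 fold change above 0, from 0.26 to 0.90 with a median of 0.57. After removal of the length and GC trend the medians were 0.18 for Psma, 0.19 for Psmb, 0.24 for Psmc and 0.14 for Psmd, and without AP_OCA replicate 3 Psmb at 0.67 was above Psma at 0.57. The groups did not overlap for 5 of the 7, where 11.1% of all genes were higher without overlap. They were Psma2, Psma3, Psma5, Psma6 and Psma7, of which the first 4 were named after their values were seen and did not pass the test. With 8 libraries the median log2 fold change of the class was 0.91, and 0 of 7 passed. After removal of the length and GC trend the medians over 8 were 0.45 for Psma, 0.59 for Psmb, 0.31 for Psmc and 0.17 for Psmd.

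Psma7, an alpha ring subunit (ENSMUSG00000027566, minus strand of chr2:180036374-180042433 in mm10), was the member that passed. Its level was 27.8, 31.8, 35.7 and 29.5 CPM in AP replicates 1 to 4, and 51.9, 50.4 and 77.8 CPM in AP_OCA replicates 1, 3 and 4. The lowest of the AP_OCA libraries was well above the highest AP library, and replicate 4 was the highest of these 7. The mean was 31.2 ± 3.41 CPM in AP (SD, n = 4) and 60.0 ± 15.4 CPM in AP_OCA (n = 3), a log2 fold change of 0.90 ± 0.19 (SE; limma adjusted p = 0.0372). Psma7 rose in these 7 libraries, and its level in AP_OCA replicate 2 was 93.8 CPM. With all 8 libraries the log2 fold change was 1.07 ± 0.26 (limma adjusted p = 0.26). Over 17 other settings of the 7-library comparison the difference kept its direction and its adjusted p ran from 0.00184 to 0.182, above the threshold of 0.05 in 9 of them, among them those that left out any single library other than AP_OCA replicate 1.

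Psma1, another alpha ring subunit, had the smallest difference of the class over 7 libraries. Its level was 13.6, 11.7, 9.73 and 10.8 CPM in AP and 14.7, 11.1 and 16.3 CPM in AP_OCA replicates 1, 3 and 4. The groups overlapped, and AP_OCA replicate 2 was far above both at 43.0 CPM. The difference on the log2 scale was 0.26 ± 0.21 over 7 libraries (limma adjusted p = 0.443) and 0.65 ± 0.38 over 8 (limma adjusted p = 0.39), and it was -0.29 over 7 after removal of the length and GC trend. Psma3 had a near-identical copy, Gm13835, whose annotated transcript matched it at 100% over 665 bases and which was listed at 9.41 to 26.7 CPM in the 7 libraries, so its reads may be split. Psma8, which in mouse takes the place of Psma7 in male germ cells, was listed at 0 to 0.219 CPM. That was at or below the 3rd lowest step above 0 in each of the 7 libraries (0.206 to 0.313 CPM).

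The beta subunits held both the inducible subunits and a wide range of differences. Their 11 genes summed to between 209 and 258 CPM in AP and between 284 and 429 CPM in AP_OCA replicates 1, 3 and 4, with no overlap, and to 1008 CPM in AP_OCA replicate 2. Of 10 tested Psmb genes, 9 had a log2 fold change above 0 and 0 passed, with a median of 0.46 and a range from -0.37 to 0.73. The groups did not overlap, with AP_OCA higher, for 3 of the 10, namely Psmb1, Psmb6 and Psmb10, where 11.1% of all genes did so. AP_OCA was wholly lower for 1 of the 10, Psmb9, where 12.1% of all genes were, so that count is near the background. Psmb11, the subunit of thymic cortical epithelium, was listed at 0 in all 7 libraries and at 0.00035 CPM in AP_OCA replicate 2.

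Psmb1, a beta ring subunit with no active site of its own, had the largest difference of the class over 7 libraries. Its level was 19.8, 24.7, 29.7 and 21.8 CPM in AP and 32.1, 35.7 and 56.2 CPM in AP_OCA replicates 1, 3 and 4. Every AP_OCA library was higher, and replicate 2 was the highest at 88.7 CPM. This gave a log2 fold change of 0.73 ± 0.22 over 7 libraries (limma adjusted p = 0.0717; 0.36 after removal of the length and GC trend) and 1.01 ± 0.33 over 8 (limma adjusted p = 0.262), and did not pass.

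Of the standard catalytic subunits, none passed. Psmb5, which carries the chymotrypsin-like site and whose promoter is shown above, was at 21.1, 23.5, 28.1 and 26.9 CPM in AP and at 37.9, 26.0 and 42.8 CPM in AP_OCA replicates 1, 3 and 4. Replicate 3 of AP_OCA lay inside the AP range, so the groups overlapped, and replicate 2 was at 40.9 CPM. For Psmb5 the log2 fold change was 0.48 ± 0.20 over 7 libraries (limma adjusted p = 0.159; 0.31 after removal of the length and GC trend) and 0.53 ± 0.23 over 8 (limma adjusted p = 0.299). Psmb6, which carries the caspase-like site, was at 25.0, 29.1, 36.5 and 27.1 CPM in AP and at 37.4, 41.5 and 57.1 CPM in AP_OCA replicates 1, 3 and 4. Its groups did not overlap, though AP replicate 3 came close to AP_OCA replicate 1, and replicate 2 of AP_OCA was highest at 83.6 CPM. The log2 fold change of Psmb6 was 0.60 ± 0.20 over 7 libraries (limma adjusted p = 0.0931; 0.39 after removal of the length and GC trend) and 0.82 ± 0.29 over 8 (limma adjusted p = 0.264). Psmb7, which carries the trypsin-like site, was at 12.2, 12.1, 16.2 and 13.03 CPM in AP and at 15.9, 17.8 and 14.9 CPM in AP_OCA replicates 1, 3 and 4. AP replicate 3 lay within the AP_OCA values, and replicate 2 of AP_OCA was slightly above all at 19.3 CPM. For Psmb7 the log2 fold change was 0.26 ± 0.19 over 7 libraries (limma adjusted p = 0.394) and 0.32 ± 0.20 over 8 (limma adjusted p = 0.41), and it was -0.0892 over 7 after removal of the length and GC trend.

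The inducible subunits Psmb8 and Psmb9 were low in the 7 libraries and high in AP_OCA replicate 2. Psmb8, the inducible counterpart of Psmb5, was at 10.8, 9.18, 13.2 and 9.41 CPM in AP and at 10.2, 11.1 and 12.3 CPM in AP_OCA replicates 1, 3 and 4. The 3 AP_OCA libraries lay within the AP range. AP_OCA replicate 2 had 217 CPM, 20.4-fold the AP mean. Psmb8 had a log2 fold change of 0.08 ± 0.20 over 7 libraries (limma adjusted p = 0.84) and 1.12 ± 0.86 over 8 (limma adjusted p = 0.512).

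Psmb9, the inducible counterpart of Psmb6, was the only tested member whose AP_OCA replicates 1, 3 and 4 lay wholly below AP. Its level was 5.07, 5.95, 7.25 and 5.39 CPM in AP and 4.14, 3.85 and 4.96 CPM in AP_OCA replicates 1, 3 and 4, while replicate 2 had 132 CPM, 22.3-fold the AP mean. The gap between the highest of those AP_OCA libraries and the lowest AP library was small. As a log2 fold change this was -0.37 ± 0.22 over 7 libraries (limma adjusted p = 0.301) and 0.79 ± 0.96 over 8 (limma adjusted p = 0.672), so its sign turned on 1 library. Psmb9 overlaps the peptide transporter gene Tap1 on the opposite strand by 212 bases, and Tap1 stood at 37.8 to 71.0 CPM in the 7 libraries and at 192 CPM in AP_OCA replicate 2.

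Psmb10, the inducible counterpart of Psmb7, was well above Psmb8 and Psmb9 in every one of the 7 libraries, also per kilobase. Its level was 54.6, 64.7, 58.3 and 58.7 CPM in AP and 83.0, 79.6 and 130 CPM in AP_OCA replicates 1, 3 and 4. All AP_OCA libraries were above all AP libraries, and replicate 2 was highest at 183 CPM. This gave a log2 fold change of 0.68 ± 0.19 over 7 libraries (limma adjusted p = 0.0637) and 0.91 ± 0.30 over 8 (limma adjusted p = 0.262). Psmb10 lies 1873 bases from Ctrl, a digestive protease gene on the same strand that was listed at 19400 to 22940 CPM, and whether reads from Ctrl reached Psmb10 was not tested.

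The balance of inducible and standard catalytic subunits was compared as the log2 ratio of their summed CPM per kilobase of transcript. For all 3 pairs together it was -0.33, -0.30, -0.65 and -0.46 in AP replicates 1 to 4, and -0.50, -0.45 and -0.26 in AP_OCA replicates 1, 3 and 4. These groups overlapped, and AP_OCA replicate 2 stood at 1.15. The difference AP_OCA minus AP was 0.03 over 7 libraries (two-sided exact permutation test, p = 0.8, where the smallest possible was 0.0571) and 0.42 over 8 libraries (p = 0.4 in the same exact test, where the smallest possible was 0.0286). Taken pair by pair, as a description, the log2 ratio of Psmb9 over Psmb6 was -3.07 ± 0.02 in AP (SD, n = 4) and -4.14 ± 0.18 in AP_OCA (n = 3), with no overlap, and -0.10 in AP_OCA replicate 2. The log2 ratio of Psmb8 over Psmb5 was -2.09 ± 0.25 in AP, -2.50 ± 0.37 in AP_OCA (n = 3) and 1.55 in AP_OCA replicate 2. The log2 ratio of Psmb10 over Psmb7 was 1.97 ± 0.23 in AP, 2.38 ± 0.50 in AP_OCA (n = 3) and 3.07 in AP_OCA replicate 2. Both of the latter overlapped between AP and the 3 AP_OCA libraries. For Psmb8 and Psmb9 together over Psmb5 and Psmb6, a ratio added after seeing the data, the log2 value was -2.57 ± 0.14 in AP and -3.24 ± 0.17 in AP_OCA (n = 3), lower without overlap, and 0.62 in AP_OCA replicate 2. Psmb10 was the inducible subunit that exceeded its standard counterpart in all 8 libraries.

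**Figure D3:**
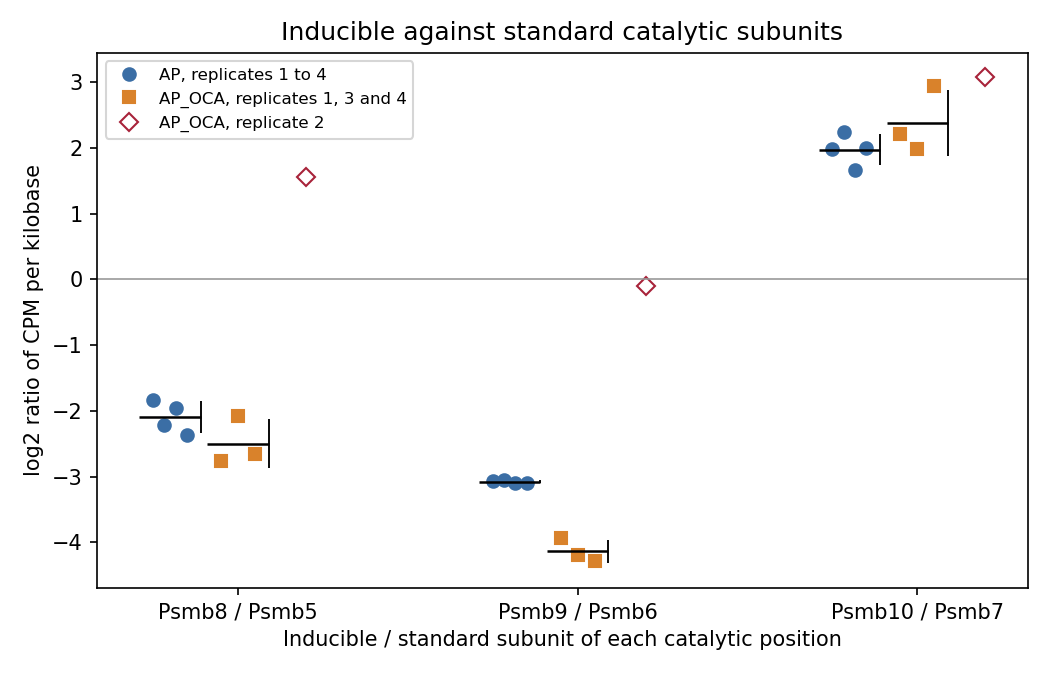
Log2 ratio of CPM per kilobase (y axis) of each inducible catalytic subunit over its standard counterpart (x axis) in each library: circles are AP, squares AP_OCA replicates 1, 3 and 4, open diamonds AP_OCA replicate 2, and black lines are the mean with the SD. The Psmb9 over Psmb6 ratio falls into separate groups around -3.07 and -4.14, and AP_OCA replicate 2 is the highest library for every pair.

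Lymphocyte and macrophage markers were high together with the inducible subunits in AP_OCA replicate 2. The sum of 4 neutrophil markers was not, at 27.2 CPM against 10.6 to 64.5 in the other 7 libraries. Sums of stellate markers (367 CPM against 99.1 to 222) and endothelial markers (103.5 CPM against 17.6 to 50.2) were above the other 7 there too. Beside the 12 lymphocyte and 8 macrophage markers above, Psme1 and Psme2, which form the interferon-inducible 11S cap, stood there at 247 and 114 CPM, against 12.3 to 25.1 CPM and 4.88 to 12.5 CPM in the other 7 (named after their values were seen). B2m, the light chain of MHC class I, was there at 5521 CPM against 53.0 to 126 (also named after its values were seen). The part of immune cells in the levels of Psmb8 and Psmb9 in that library was not tested. Among 11 MHC class I and interferon genes, 0 passed over 7 libraries, 8 had a log2 fold change below 0, and the median was -0.32. The AP_OCA values lay wholly below the AP values for 5 of the 11, where 12.1% of all genes did so. With all 8 libraries the direction of the list turned. Then 9 of the 11 had a log2 fold change above 0, against 49.1% of all genes, the median was 0.30, and 0 lay wholly below.

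The 3 genes of that list with the lowest p were Nlrc5, Irf1 and Irf8, which encode transcription factors and a co-activator of interferon and MHC class I genes. Nlrc5, the co-activator, was at 11.01, 12.3, 11.5 and 15.7 CPM in AP and 3.94, 9.61 and 5.28 CPM in AP_OCA replicates 1, 3 and 4, without overlap, and at 57.5 CPM in replicate 2. Its log2 fold change was -0.97 ± 0.26 (7 libraries, limma adjusted p = 0.0576). For Irf1 the log2 fold change was -0.81 ± 0.24 (limma adjusted p = 0.0683), and for Irf8 it was -0.74 ± 0.24 (limma adjusted p = 0.0899). Both also lay lower without overlap in the 3 AP_OCA libraries, and both were highest in AP_OCA replicate 2, at 102 and 125.5 CPM. The sum of the 12 lymphocyte and antigen-presenting markers was 50.6 to 97.4 CPM in AP and 38.8 to 66.4 CPM in the 3 AP_OCA libraries, overlapping. Of 9 macrophage markers, 2 were lower without overlap in the same AP_OCA libraries, where 12.1% of all genes were. They were Cd68, with a log2 fold change of -1.11 (limma adjusted p = 0.0517), and Adgre1, with -0.71 (limma adjusted p = 0.108). Of the 9, 3 had a log2 fold change above 0. The macrophage sums overlapped, at 61.3 to 129 CPM in AP and 54.1 to 72.4 CPM in those AP_OCA libraries. Of 4 neutrophil markers, 2 were lower without overlap: Csf3r, with -1.58 (limma adjusted p = 0.0241), and Cxcr2, with -0.91 (limma adjusted p = 0.108). The neutrophil sums overlapped, at 26.8 to 54.7 CPM in AP and 10.6 to 64.5 CPM in AP_OCA. Cd68, Adgre1, Csf3r and Cxcr2 were named after their values were seen, and their part in the differences of Nlrc5, Irf1 and Irf8 was not tested.

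The ATPases of the 19S base were higher in sum as well. The 6 Psmc genes summed to between 136 and 149 CPM in AP and between 171 and 221 CPM in AP_OCA replicates 1, 3 and 4, with no overlap, and to 267 CPM in replicate 2. All 6 had a log2 fold change above 0, from 0.24 to 0.83 with a median of 0.40, and 0 passed. The groups did not overlap for 3 of the 6, namely Psmc1, Psmc3 and Psmc6, where 11.1% of all genes were higher without overlap. With 8 libraries the median was 0.45, and 0 passed.

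Psmc6, an ATPase of the ring that threads substrates into the core, had the largest difference among the ATPases. Its level was 15.2, 18.8, 8.41 and 13.8 CPM in AP and 19.8, 21.1 and 36.2 CPM in AP_OCA replicates 1, 3 and 4. AP replicate 3 was low, AP_OCA replicate 4 was high, and the groups came close between AP replicate 2 and AP_OCA replicate 1. On the log2 scale the difference was 0.83 ± 0.27 over 7 libraries (limma adjusted p = 0.0897; 0.27 after removal of the length and GC trend) and 0.91 ± 0.30 over 8 (limma adjusted p = 0.262), with 31.4 CPM in AP_OCA replicate 2. Psmc5, another ATPase of the ring, had the smallest difference (0.05 over 7 libraries after removal of the same trend). It was at 18.6, 16.8, 18.8 and 23.2 CPM in AP and at 27.0, 18.7 and 23.8 CPM in AP_OCA replicates 1, 3 and 4, so the groups overlapped, and at 35.2 CPM in replicate 2. Psmc5 had a log2 fold change of 0.24 ± 0.19 over 7 libraries (limma adjusted p = 0.452) and 0.39 ± 0.24 over 8 (limma adjusted p = 0.41).

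The Psmd genes, most of them for subunits of base and lid, had the smallest median difference of the 4 classes, though over 7 libraries not in every setting. Without AP replicate 3 Psmc at 0.369 was slightly below Psmd at 0.370, and without AP_OCA replicate 1 Psmc at 0.380 was below Psmd at 0.391. In AP_OCA replicate 2 the sum of the Psmd genes stayed below that of the 3 other AP_OCA libraries. Their 14 genes summed to between 425 and 443 CPM in AP and between 506 and 556 CPM in AP_OCA replicates 1, 3 and 4, with no overlap, but to 449 CPM in replicate 2, close to AP. The sum in replicate 2 leaned on Psmd8, at 77.7 CPM there against 183, 195 and 197 CPM in AP_OCA replicates 1, 3 and 4. Counted by gene, 5 of the 14 lay above the other 7 libraries in replicate 2 and 3 lay below. Of all genes tested 32.5% lay above there and 36.9% below, so the count above is near the background. Of 14, 11 had a log2 fold change above 0 and 0 passed, with a median of 0.36 and a range from -0.17 to 0.59. The groups did not overlap for 5 of the 14, namely Psmd4, Psmd8, Psmd12, Psmd13 and Psmd14, where 11.1% of all genes were higher without overlap. With 8 libraries the median was 0.21, and the groups of Psmd8 overlapped.

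Psmd14, the lid enzyme that cuts ubiquitin off the substrate, had the largest difference of this class over 7 libraries. Its level was 8.003, 7.40, 6.17 and 6.35 CPM in AP and 10.2, 10.6 and 12.3 CPM in AP_OCA replicates 1, 3 and 4. The groups were apart, and replicate 2 was highest at 25.5 CPM. This gave a log2 fold change of 0.59 ± 0.20 over 7 libraries (limma adjusted p = 0.101; 0.10 after removal of the length and GC trend) and 0.88 ± 0.30 over 8 (limma adjusted p = 0.262). Psmd2, a large scaffold of the base, had the lowest fold change over 7 libraries. It was at 43.7, 37.5, 34.5 and 35.3 CPM in AP and at 35.0, 30.7 and 34.2 CPM in AP_OCA replicates 1, 3 and 4, so the groups overlapped slightly, and at 55.8 CPM in replicate 2. For Psmd2 the log2 fold change was -0.17 ± 0.17 over 7 libraries (limma adjusted p = 0.537) and 0.01 ± 0.24 over 8 (limma adjusted p = 0.988). Psmd1, the other large scaffold of the base, also had a log2 fold change below 0 at -0.13 ± 0.27, and was named after its values were seen.

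**Figure D4:**
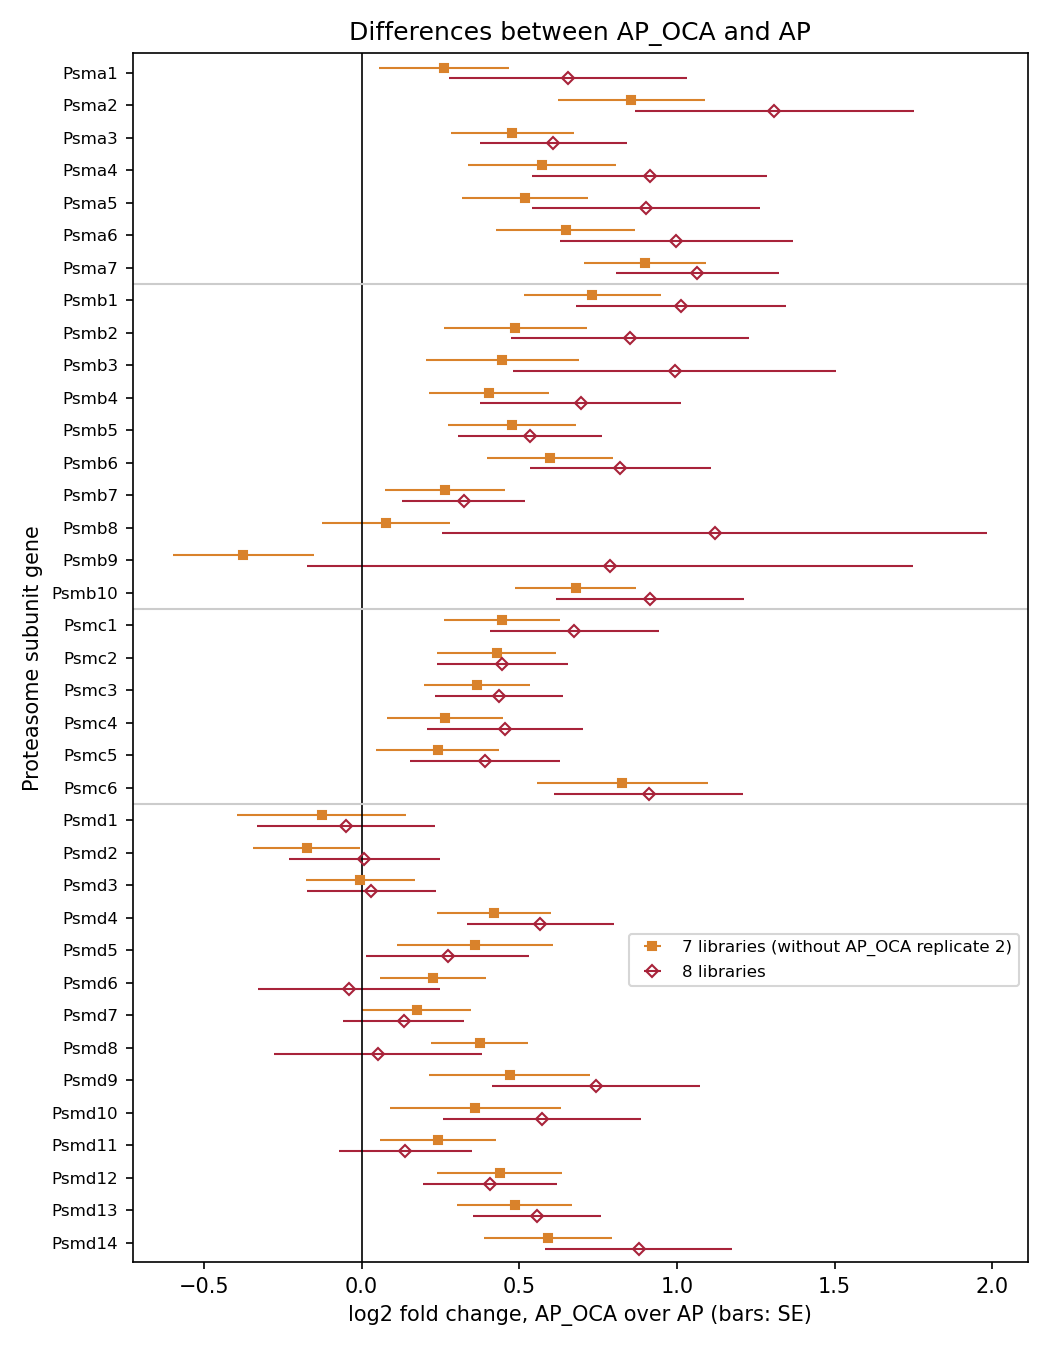
Log2 fold change of AP_OCA over AP (x axis, bars are the SE) for each tested proteasome subunit gene (y axis, by class), with squares for the 7 libraries without AP_OCA replicate 2 and open diamonds for all 8. Squares lie to the right of 0 for 33 of 37 genes, and the bars of Psmb8 and Psmb9 widen most when AP_OCA replicate 2 enters.

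Psmd8, a lid subunit, was the most abundant member, both by level and per kilobase of transcript (median over the 7 libraries 163 CPM and 105.6 CPM per kilobase; named after its values were seen). Its level was 143, 141, 146 and 163 CPM in AP, 183, 195 and 197 CPM in AP_OCA replicates 1, 3 and 4, and 77.7 CPM in replicate 2. The 3 AP_OCA libraries were above AP, while replicate 2 was the lowest of all. The log2 fold change was 0.37 ± 0.15 over 7 libraries (limma adjusted p = 0.151) and 0.05 ± 0.33 over 8 (limma adjusted p = 0.943). Per kilobase, the members next in order were Psmb10 at 49.4, Psmb6 at 45.7, Psma7 at 39.1 and Psmd6 at 34.6 CPM per kilobase, and the lowest tested members were Psmd9 at 1.36 and Psmd5 at 2.09.

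In AP_OCA replicate 2 the classes parted. Of the 37 tested members, 25 lay above the range of the other 7 libraries there, where 32.5% of all genes tested did, and 3 lay below, where 36.9% did. The 3 below were Psmd6, Psmd8 and Psmd11 (named after their values were seen). All 7 tested Psma genes and 9 of 10 Psmb genes were above the other 7 libraries, as were 4 of 6 Psmc genes and 5 of 14 Psmd genes. More than 2-fold above were 4 Psma genes, 4 Psmb genes, 1 Psmd gene and 0 Psmc genes, 9 in all, where 13.8% of all genes tested were. The median difference from the AP mean on log2(CPM + 1) was 1.94 for Psma, 1.74 for Psmb, 0.93 for Psmc and 0.25 for Psmd in that library. In AP_OCA replicates 1, 3 and 4 the same measure ran from 0.39 to 0.87 for Psma and from 0.19 to 0.45 for Psmd. Whether the core and the cap differ in their response was not tested.

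Genes that assemble or regulate the proteasome showed a median difference close to that of the subunits, with none past the test. Of 16 such genes, 0 passed over 7 libraries, 13 had a log2 fold change above 0, against 50.0% of all genes, and the median was 0.39. Without overlap, 2 of the 16 were higher in AP_OCA, where 11.1% of all genes were. Another 2 were lower, where 12.1% were, so both counts are near the background, unlike the 43.2% of subunits higher without overlap. The lowest p belonged to Usp14, a deubiquitinating enzyme bound to the cap, which was at 6.06, 6.08, 5.07 and 6.35 CPM in AP and 9.92, 10.9 and 12.6 CPM in AP_OCA replicates 1, 3 and 4. Its groups were apart, with a log2 fold change of 0.81 ± 0.20 (limma adjusted p = 0.0513), and AP_OCA replicate 2 had 9.39 CPM. Sem1, a small lid subunit outside the Psm names, had a log2 fold change of 0.88 ± 0.25 (limma adjusted p = 0.066). Pomp, the chaperone of core maturation, had one of 0.68 ± 0.24 (limma adjusted p = 0.11). After removal of the length and GC trend the log2 fold change was 0.56 for Usp14, 0.13 for Sem1 and 0.45 for Pomp. Over 17 other settings, Usp14 passed the threshold in 4, Sem1 in 3 and Pomp in 2.

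NRF1, encoded by Nfe2l1, is the transcription factor that raises proteasome gene transcription when proteasome capacity falls short, after release from the endoplasmic reticulum by the ERAD genes Sel1l, Syvn1 and Vcp, and it binds DNA with small MAF proteins. Of 10 genes of this axis, 1 fell and 0 rose, where 1.59% of all genes fell and 0.854% rose, with a median log2 fold change of -0.32. The gene that fell was Mafk, a small MAF partner, at 78.4, 89.1, 95.1 and 88.4 CPM in AP and 65.2, 48.0 and 34.5 CPM in AP_OCA replicates 1, 3 and 4. All 3 were below AP, and AP_OCA replicate 2 was lowest at 13.6 CPM. Mafk had a log2 fold change of -0.86 ± 0.20 (limma adjusted p = 0.0474; over 17 other settings 0.00318 to 0.191, past the threshold in 6). Maff, another small MAF, had a log2 fold change of -0.73 ± 0.19 (limma adjusted p = 0.0569). Sel1l, an ERAD adaptor, was at 84.2, 89.3, 65.9 and 83.1 CPM in AP and 134, 124 and 106 CPM in AP_OCA replicates 1, 3 and 4, above AP throughout, but at 27.97 CPM in replicate 2. Its log2 fold change was 0.58 ± 0.17 (limma adjusted p = 0.0702).

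Of 10 genes for ubiquitin and for the shuttles that bring substrates to the cap, 1 rose and 0 fell, where 0.854% of all genes rose and 1.59% fell. The median log2 fold change was -0.19, below 0 unlike that of the subunits. Rps27a, which encodes ubiquitin fused to a ribosomal protein, was at 85.3, 102, 110 and 117 CPM in AP and 337, 320 and 423 CPM in AP_OCA replicates 1, 3 and 4. The AP_OCA libraries were far above AP, replicate 2 included at 305 CPM. Its log2 fold change was 1.79 ± 0.18 (limma adjusted p = 0.000804). Ribosomal protein genes have many processed copies in the genome, so its reads may be shared. Uba1, the ubiquitin-activating enzyme, had a log2 fold change of -0.52 ± 0.18 (limma adjusted p = 0.0976).

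Of 9 proteotoxic stress genes, which rise in many cells when the proteasome is blocked, 3 fell and 0 rose, where 1.59% of all genes fell, with a median log2 fold change of -0.47. Hspa1b, an inducible HSP70 chaperone, was at 49.6, 67.6, 77.0 and 53.1 CPM in AP and 21.9, 11.1 and 13.1 CPM in AP_OCA replicates 1, 3 and 4. The groups were far apart, and AP_OCA replicate 2 was lowest at 0.219 CPM. For Hspa1b the log2 fold change was -1.98 ± 0.23 (limma adjusted p = 0.00388). That of its near-identical neighbour Hspa1a, with which it can share reads, so that the pair may not count as separate genes, was -1.96 ± 0.28 (limma adjusted p = 0.0112). Bag3, a co-chaperone of HSP70, was at 26.9, 31.4, 37.4 and 26.3 CPM in AP and 19.8, 15.01 and 15.5 CPM in AP_OCA replicates 1, 3 and 4, lower without overlap. Its log2 fold change was -0.82 ± 0.19 (limma adjusted p = 0.0464; past the threshold in 5 of 17 other settings). With all 8 libraries 0 genes of these 5 lists passed. The median log2 fold change was then 0.46 for assembly and regulation, -0.42 for the NRF1 axis and -0.30 for shuttles and ubiquitin. It was 0.30 for MHC class I and interferon genes and -0.87 for proteotoxic stress genes.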

How the data were processed

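The authors deposited log2 values for 8 libraries, whose lowest value of -6.64 in every library is the log2 of the offset 0.01; the columns share their highest values, as quantile normalised libraries do, but AP_OCA replicate 2 differs in its lowest values. Per the submitters' processing notes the build was mm10, and per the labels libraries came from total RNA with a SMARTER kit; aligner, counter and annotation are not given in the sources used here. Depth is unknown.

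Values were returned to the linear scale, the offset removed and each library scaled to 1000000 (CPM). The design provided for log2 or count values, and followed its log2 branch. Genes whose mean reached 1 CPM were tested on log2(CPM + 1) with limma 3.58.1 in R 4.3.3 (mean-variance trend, robust moderation), AP_OCA against AP, with Benjamini-Hochberg adjustment at 0.05, over 7 libraries and over 8. The pseudocount understates changes of low genes. Steps were checked on simulated data whose noise was estimated without AP_OCA replicate 2, so the check does not cover the spread which that library adds.

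The members and lists were chosen with earlier results of these data known. Named were the catalytic and inducible subunits, members past the threshold, each class's extremes and up to 3 genes of lowest p per list. The result of 1 gene that this rule takes is not reported here. Transcript lengths came from GENCODE's principal transcripts on mm10, near-identical copies (at least 95% over 200 bases) from blastn 2.17.0, and promoters from RefSeq. Of the listed regulators, Paaf1 was not analysed here. Alternatives were pseudocounts of 0.1 and 5 CPM, no filter, a minimum of 5 CPM, limma without trend, quality weights, median centring, the deposited log2 values, a replicate block, removal of a length and GC trend, and leaving out each library.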

Additional observations from a re-analysis of the deposited data

Results flagged for a closer look

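Each of the 37 tested members was screened in each group of 4 libraries for a single library far from the others, by Dixon's criterion on the gap to the nearest library. Chance gives such a library in about 1 in 20 groups, and 7 of 74 gene and group pairs showed one. Of the 7, 4 were AP_OCA replicate 2. Psmb8 stood there at 217 CPM, with the next AP_OCA library at 12.3 CPM, and Psmb9 at 132 CPM, with the next at 4.96 CPM. The lid subunits Psmd6 and Psmd8 were lowest there, at 24.3 CPM against 48.0 CPM or more and at 77.7 CPM against 183 CPM or more. Lymphocyte markers summed to 13870 CPM in that library, and their part in these levels was not tested. In AP replicate 4, Psma6 was lowest at 14.1 CPM, with the next at 19.8 CPM, and Psmb2 was lowest at 10.3 CPM, with the next at 15.1 CPM. In AP_OCA replicate 4, Psmd12 was highest at 36.6 CPM, with the next at 25.4 CPM.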

How the results depend on the processing

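The single call over 7 libraries depended on the processing. It became 0 with no filter on low values, with limma without trend and with the length and GC trend removed, 3 with the replicate number as a block (Psma2, Psma7 and Psmc6, the last at 0.98, adjusted p = 0.0276) and 7 with quality weights per library, and between 0 and 5 when each library was left out (5 without AP_OCA replicate 1, 0 without any other); the cause was not tested. With no filter 0 of 21426 genes passed in limma (3255 at an unadjusted p under 0.05), so Rps27a, Hspa1a, Hspa1b, Mafk and Bag3 lost their calls there too. Same-numbered libraries did not deviate together (correlations between -0.072 and 0.053 over 7 libraries), so the block only tests a shared number. The median log2 fold change was 0.19 over 7 and 0.33 over 8 libraries with the length and GC trend removed, and ran from 0.29 to 0.47 and from 0.43 to 0.76 when each library was left out. Over 8 libraries the count was 5 with quality weights, and between 0 and 1 when each library was left out (1 without AP_OCA replicate 2). After removal of that trend the log2 fold change turned to -0.29 for Psma1 over 7 libraries and to -0.0892 and -0.0885 for Psmb7 over 7 and 8. Over 8 libraries, quality weights gave -0.31 for Psmb9 and -0.23 for Psmd2; without AP_OCA replicate 2 these were -0.37 and -0.17, and Psmd2 was -0.03 without AP replicate 3 and -0.02 without AP replicate 4; leaving out each library gave at most 1.22 for Psmb9 and 0.11 for Psmd2. Among the 13 named members, 204 of 221 alternative values over 7 libraries and 222 of 234 over 8 kept direction and side of the threshold. The catalytic ratio's difference over 8 libraries, 0.42, was 0.03 without AP_OCA replicate 2 and up to 0.58 without another library; it was 0.29 without Psmb10 and Psmb7, where the 7 libraries alone had the opposite sign, and 0.45 not per length. Of these, only the value without AP_OCA replicate 2 was planned; the others and the settings of list genes were added after seeing the data.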
